A study of Drosophila melanogaster with 12 samples.

Results

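The nuclear genome of Drosophila melanogaster holds most subunits of the mitochondrial respiratory chain, and it also holds additional copies of many of them. The genes described here are all those whose FlyBase symbol begins with ND-, Sdh, UQCR, Cyt-c, COX or ATPsyn. The count files list 91 of them among 17023 gene identifiers. They were divided into 66 general genes and 25 copies, whose symbols end in L or in L and a digit. ND-MNLL also ends in L, but its last letters are its residue name, and it was kept with the general genes. Of the general genes, 34 belong to complex I, 4 to complex II, 7 to complex III, 8 to complex IV and 11 to complex V. The remaining general genes are Sdhaf3, an assembly factor of complex II, and Cyt-c-d, a cytochrome c gene. The copies comprise 6 of complex I, 3 of complex II, 4 of complex III, 8 of complex IV and 4 of complex V. Cyt-c-p, the other cytochrome c gene, was not analysed here.

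In the respiratory chain, complexes I and II pass electrons from NADH and succinate to ubiquinone, complex III passes them to cytochrome c, and complex IV passes them to oxygen. The proton gradient that complexes I, III and IV build drives ATP synthesis by complex V. Some subunits are encoded in mitochondrial DNA, and the rest are made in the cytoplasm from nuclear genes and imported. In Drosophila, many of the nuclear copies are known to be transcribed mainly in the testis, and the mitochondria of the female germline are passed on to the egg.

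Poly(A) RNA from ovaries was sequenced in 10 libraries, in 5 groups of 2, all labelled as taken 1 to 3 days after eclosion. In 3 groups the genotype label is a germline knockdown (GKD): of SETDB1, the H3K9 methyltransferase encoded by egg; of wde, which encodes its cofactor; or of Nup154, a nuclear pore gene that the series uses as a developmental control. The other 2 groups both carry the genotype label Young control. The titles name NGVP16 in one and virgin flies in the other, where 1 of the 2 titles adds Dcr. Beyond NGVP16 in the control titles, which do not say what it stands for, the labels name no driver line and no hairpin. They give no genotype that controls and knockdowns share, and do not say whether ovaries were pooled or whether replicates came from separate crosses. The spread behind every p-value is thus that of the libraries alone and may be technical. The NGVP16 pair was the control, because its titles share a running number with those of the knockdowns, so the 3 comparisons with it share control libraries.

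Library totals ranged from 7351948 to 20162235 counts. The targeted transcript passed the test in 1 of the 3 knockdowns: Nup154 RNA was lower in the libraries labelled Nup154 GKD (log2 fold change -1.28, edgeR adjusted p = 0.0121). It was also lower in those labelled wde GKD (-1.02, adjusted p = 0.0308), and at -0.87 (adjusted p = 0.0678) in those labelled SETDB1 GKD. The value was -0.60 (adjusted p = 0.206) for egg in the libraries labelled SETDB1 GKD and -0.15 (adjusted p = 0.81) for wde in those labelled wde GKD, so these are called by their labels throughout. Germ cell markers, 11 of 11 detected in every library, made up 0.0631% to 0.13% of each knockdown library and 0.308% to 0.567% of each young control. Members of that list went both ways: 4, 8 and 5 were called lower in SETDB1, wde and Nup154 GKD against NGVP16 and 2, 2 and 1 higher, among them Rbp9, which rose in all 3 (3.26, 2.73 and 2.96 on the log2 scale; edgeR adjusted p = 0.000629, 0.000704 and 0.000404). Eggshell genes made up 0.0202% to 0.182% in the knockdowns against 0.532% to 1.18% in the controls, and muscle sheath genes held 2.43% to 3.16% in the knockdowns against 0.318% to 0.49%. In such bulk samples, fewer cells of a type and less RNA per cell cannot be told apart.

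The clearest difference among the respiratory chain genes lay in a few copies. ATPsynepsilonL, a copy of sun, which encodes the epsilon subunit in the central stalk of ATP synthase, was higher in all 3 knockdown groups than in the NGVP16 libraries. Cyt-c1L, a copy of the heme-carrying subunit Cyt-c1 of complex III, was higher in SETDB1 GKD. ATPsynbetaL, a copy of the catalytic beta subunit of ATP synthase, was higher in wde GKD, with most of its counts in 1 library. The other copies were near 0 or not past the test.

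Of the 25 copies, 4 had 0 counts in all 10 libraries (ND-B14.5AL, SdhAL, COX5BL and COX6AL). A further 12 reached no more than 9 counts in any library: ND-20L, ND-24L, ND-49L, ND-51L1, ND-51L2, SdhCL, UQCR-14L, COX6AL2, COX6CL, COX7AL, ATPsynCF6L and ATPsynGL. The remaining 9 reached at least 10 counts in a library, and 7 of them passed the filter on low counts (filterByExpr). Because a copy that is high in 1 group only can pass through that group, the 7 are not a sample of all copies. None of the complex I copies passed.

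ATPsynepsilonL lies on the plus strand of chromosome 3R, at 10121773 to 10122320 (dm6), and its exons overlap those of no other annotated gene. Its raw counts were 762 and 583 in SETDB1 GKD, 183 and 388 in the wde libraries, and 40 and 22 in the Nup154 libraries. The NGVP16 libraries held 0 and 5 counts and the virgin libraries 6 and 1. Every knockdown library was thus above every young control library, and the groups did not overlap in the order SETDB1, wde, Nup154, controls. As CPM (counts scaled to a common library size after TMM), the levels were 49.8 and 55.7 in SETDB1 GKD, 17.7 and 38.2 in the wde libraries, 3.55 and 1.91 in the Nup154 libraries, and 0 and 0.402 in the NGVP16 libraries. Against that pair, the log2 fold change was 7.75 ± 0.86 (SE; edgeR adjusted p = 0.00073) in SETDB1 GKD, 6.84 ± 0.84 (adjusted p = 0.000756) in the wde libraries and 3.48 ± 0.82 (adjusted p = 0.011) in the Nup154 libraries. These fitted values rest on 5 control counts, all in 1 library. Over the alternatives, SETDB1 GKD ran from 6.92 to 12.24 and wde GKD from 5.96 to 11.32, with the top of each range reached without NGVP16 replicate 2, where the control left had 0 counts and the fitted value is no bound. Without Nup154 GKD replicate 1 the adjusted p of that knockdown was 0.0661.

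The knockdowns were also compared with one another. The shared controls were left out of these contrasts but stayed in the fit, and so in the spread behind the p-values. ATPsynepsilonL was higher in SETDB1 GKD than in the Nup154 libraries by 4.27 ± 0.68 on the log2 scale (edgeR adjusted p = 0.018), and higher in the wde libraries than in the Nup154 libraries by 3.35 ± 0.65 (adjusted p = 0.0482). SETDB1 GKD and wde GKD differed by 0.92 ± 0.59, which did not pass (adjusted p = 0.554). Over 13 alternatives the first call against Nup154 GKD held in 8 and the second in 6. Both were lost with single libraries left out. Without Nup154 GKD replicate 1 the adjusted p-values were 0.155 and 0.334, and without replicate 2 they were 0.201 and 0.399. The first was 0.0753 without SETDB1 GKD replicate 2, and the second 0.145 and 0.199 without wde GKD replicates 1 and 2.

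Set against its partner, ATPsynepsilonL reached a sizeable level. Per kilobase of exon, its CPM was 24.6% and 17.6% of that of sun in SETDB1 GKD, 7.68% and 18.1% in the wde libraries, and 3.4% and 1.45% in the Nup154 libraries. In the young controls it was 0% to 0.325%. The partner itself did not pass the test in any of these comparisons: sun was at 186 and 290 CPM in SETDB1 GKD, 212 and 194 in the wde libraries, 95.9 and 121 in the Nup154 libraries, and 340 and 114 in the NGVP16 libraries. Its log2 fold changes against NGVP16 were 0.07 ± 0.50, -0.16 ± 0.50 and -1.07 ± 0.50 (edgeR adjusted p = 0.929, 0.817 and 0.126).

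**Figure D1:**
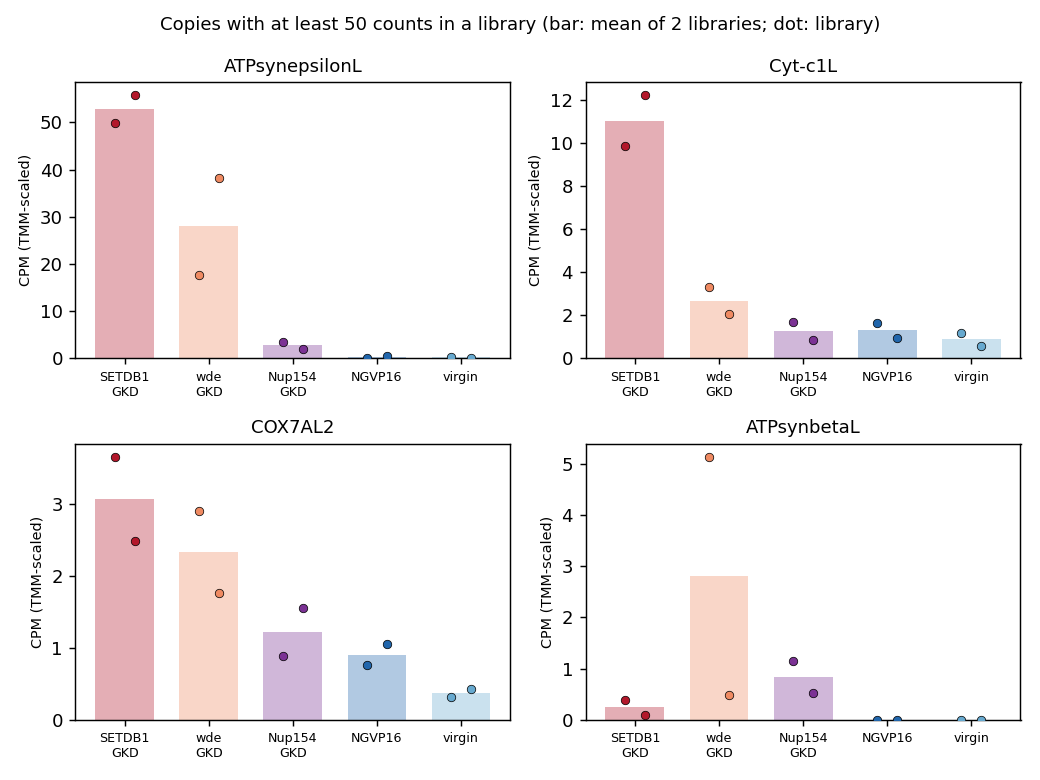
Levels of the 4 copies with at least 50 counts in a library, in CPM after TMM scaling (vertical axes, each from 0), by group; bars are means of 2 libraries and dots are libraries. ATPsynepsilonL was at 49.8 and 55.7 CPM in SETDB1 GKD and at or below 0.402 CPM in the young controls, and 1 wde GKD library held most ATPsynbetaL.

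Cyt-c1L lies on the minus strand of chromosome 3R, at 29202660 to 29204133. Its levels were 9.87 and 12.2 CPM in SETDB1 GKD, 3.29 and 2.07 in the wde libraries, 1.69 and 0.867 in the Nup154 libraries, 1.65 and 0.966 in the NGVP16 libraries, and 1.19 and 0.569 in the virgin libraries. The SETDB1 libraries stood above all others, the wde libraries above the remaining ones, and Nup154 GKD overlapped the controls. In SETDB1 GKD, Cyt-c1L was higher than in NGVP16 by 3.08 ± 0.69 (log2; edgeR adjusted p = 0.0135) and higher than in Nup154 GKD by 3.10 ± 0.68 (adjusted p = 0.0475). Against wde GKD the difference of 2.04 ± 0.65 did not pass (adjusted p = 0.219), nor did wde GKD against NGVP16 (1.04 ± 0.66, adjusted p = 0.236). Per kilobase, Cyt-c1L was at 3.64% and 4.91% of Cyt-c1 in SETDB1 GKD and at 0.264% to 0.955% in the other groups. Without SETDB1 GKD replicate 1 or 2, the adjusted p against NGVP16 was 0.0565 or 0.0734, and against Nup154 GKD it was 0.115 to 0.331 with any 1 of the 4 libraries left out.

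ATPsynbetaL lies on the plus strand of chromosome 3L, at 16097834 to 16100088. It had 53 and 5 counts in the wde libraries, 13 and 6 in the Nup154 libraries, 6 and 1 in SETDB1 GKD, and 0 in all 4 young control libraries. Each knockdown library was above each control, and 1 wde library stood far above the rest. Against a floor of 3 counts over the NGVP16 pair, the pooled level was at least 19.1-fold higher in the wde libraries, at least 5.64-fold higher in the Nup154 libraries and at least 1.84-fold higher in SETDB1 GKD. These bounds cover counting error in the controls only. The knockdown counts enter as observed, and the SETDB1 GKD value rests on 7 counts. Without replicate 1 of the knockdown, the bounds were at least 3.33-fold in wde GKD and at least 3.52-fold in Nup154 GKD, and no bound was left in SETDB1 GKD. The edgeR test passed in wde GKD (adjusted p = 0.0305), where the adjusted p was 0.173 without wde GKD replicate 1, 0.067 without NGVP16 replicate 1 and 0.0674 without NGVP16 replicate 2. It did not pass in Nup154 GKD (adjusted p = 0.0703) or SETDB1 GKD (adjusted p = 0.208).

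COX7AL2, a copy of a small subunit of complex IV, lies on the minus strand of chromosome 2L at 2192525 to 2197912. Its levels were 3.66 and 2.49 CPM in SETDB1 GKD, 2.9 and 1.77 in the wde libraries, 0.888 and 1.56 in the Nup154 libraries, 0.762 and 1.05 in the NGVP16 libraries, and 0.311 and 0.426 in the virgin libraries. Both SETDB1 and wde libraries were above the controls, but the log2 differences from NGVP16 of 1.75 ± 0.72 and 1.35 ± 0.72 did not pass (edgeR adjusted p = 0.111 and 0.168). With the virgin pair as the control both passed, at 3.06 (adjusted p = 0.0168) and 2.67 (adjusted p = 0.0236). COX4L and COX7CL, copies of further complex IV subunits, and UQCR-6.4L, a copy of a small complex III subunit, did not pass in any comparison. Their highest counts were 24, 14 and 17, and for each of them some knockdown libraries lay within the range of the controls. SdhBL, a copy of the iron-sulfur subunit of complex II, had 10 and 1 counts in SETDB1 GKD, 13 and 2 in the wde libraries, 0 and 1 in the Nup154 libraries and 0 in the controls. Its pooled level was at least 2.89-fold higher in SETDB1 GKD and at least 4.95-fold higher in the wde libraries than the floor of 3 counts over NGVP16. These bounds too leave out counting error in the knockdowns. Without replicate 1, the level in SETDB1 GKD was under that floor. That of wde GKD, with 2 counts left, was at 1.33-fold of the floor, which is no bound. UQCR-11L, a copy of another complex III subunit, reached 11 counts in 1 wde library and no more than 3 elsewhere.

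Counted together, 2 of the 7 copies tested were called higher in SETDB1 GKD against NGVP16 (ATPsynepsilonL and Cyt-c1L), where 14.6% of all genes tested were called higher. In wde GKD, 2 of 7 were higher (ATPsynepsilonL and ATPsynbetaL), against 21.3% of all genes, and in Nup154 GKD 1 of 7 (ATPsynepsilonL), against 20.8%. These shares are near the background, so the number of copies called is no result about copies as a group. Between knockdowns, 2 of 7 were higher in SETDB1 GKD than in Nup154 GKD (ATPsynepsilonL and Cyt-c1L), against 1.35% of all genes. In wde GKD against Nup154 GKD, 1 of 7 was higher (ATPsynepsilonL), against 0.871%. Because the filter can admit a copy through the group where it is high, these counts too are no result about copies as a group. None of the copies was called lower, where 2.34% and 0.544% of all genes were lower in the comparisons with Nup154 GKD.

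The summed level of all 25 copies was 69 and 73.7 CPM in SETDB1 GKD, 39.1 and 45.7 in the wde libraries, 9.6 and 7.97 in the Nup154 libraries, 8.39 and 4.35 in the NGVP16 libraries, and 3.58 and 2.42 in the virgin libraries. SETDB1 and wde libraries lay above all others, and ATPsynepsilonL alone gave 49.8 and 55.7 CPM of the sums in SETDB1 GKD and 17.7 and 38.2 of those of wde GKD. Without it, the sums were 19.2 and 18 CPM in SETDB1 GKD, 21.4 and 7.48 in the wde libraries, 6.04 and 6.07 in the Nup154 libraries, 8.39 and 3.94 in the NGVP16 libraries, and 3.27 and 2.27 in the virgin libraries, so 1 wde library then fell below an NGVP16 library. A list of 25 testis-enriched genes held 0.00755% and 0.00841% of the counts in SETDB1 GKD, 0.00569% and 0.00828% in the wde libraries, 0.00432% and 0.00459% in the Nup154 libraries, and 0.00432% to 0.00712% in the young controls. Of these genes, 6 passed the filter, with median log2 fold changes against NGVP16 of 1.44, 1.22 and 1.17 in SETDB1, wde and Nup154 GKD. In SETDB1 GKD 1 was called higher (aly, 5.7) and 1 lower (twe). The gene twe, whose count of 930 was the highest of the list, was called lower in all 3 (-1.62, -1.8 and -2.46). Mst84Da was at 0 in all 10 libraries. Of the 25 genes, 22 and 13 had counts in SETDB1 GKD, 24 and 15 in wde GKD and 13 and 6 in Nup154 GKD. The numbers were 7 and 13 in the NGVP16 libraries and 10 and 7 in the virgin libraries. Their part in the copies' result was not tested.

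The general genes gave a different picture. In no comparison with NGVP16 were more than 4 of the 62 general genes tested called, and most lay between the 2 NGVP16 libraries. Those 2 libraries lay far apart in these genes. The exception in all 3 knockdowns was Sdhaf3, known as an assembly factor that helps mature the iron-sulfur subunit of complex II.

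In SETDB1 GKD against NGVP16, 0 of the 62 general genes were called higher and 1 was called lower, where 14.6% and 9.51% of all genes tested were called. In wde GKD the counts were 0 higher and 1 lower, against 21.3% and 14.2%. Nup154 GKD had 1 higher and 3 lower, against 20.8% and 16.1%. In either direction, 1, 1 and 4 of 62 were called, where 24.1%, 35.5% and 37.0% of all genes were. All 3 shares lie below the background of their comparison, but this turned without NGVP16 replicate 2, as given further on. At an unadjusted p under 0.05 the number of general genes was 1, 3 and 10.

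The 2 NGVP16 libraries themselves differed in these genes. Of the 62 general genes, 61 were higher in NGVP16 replicate 1 than in replicate 2, with a median log2 difference of 1.43, or 2.7-fold, where the median over all genes was -0.02. SdhA, the flavoprotein subunit of complex II, was the gene that was not. The median difference between replicates was 0.44 in the virgin libraries and 0.08, 0.13 and -0.01 in SETDB1, wde and Nup154 GKD. The summed share of the general genes was 2.21% and 0.977% of CPM in the NGVP16 libraries, 1.63% and 1.44% in the virgin libraries, 1.37% and 1.28% in SETDB1 GKD, 1.54% and 1.44% in the wde libraries, and 1.24% and 1.26% in the Nup154 libraries. Both NGVP16 libraries thus stood outside the range of the other 8.

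**Figure D2:**
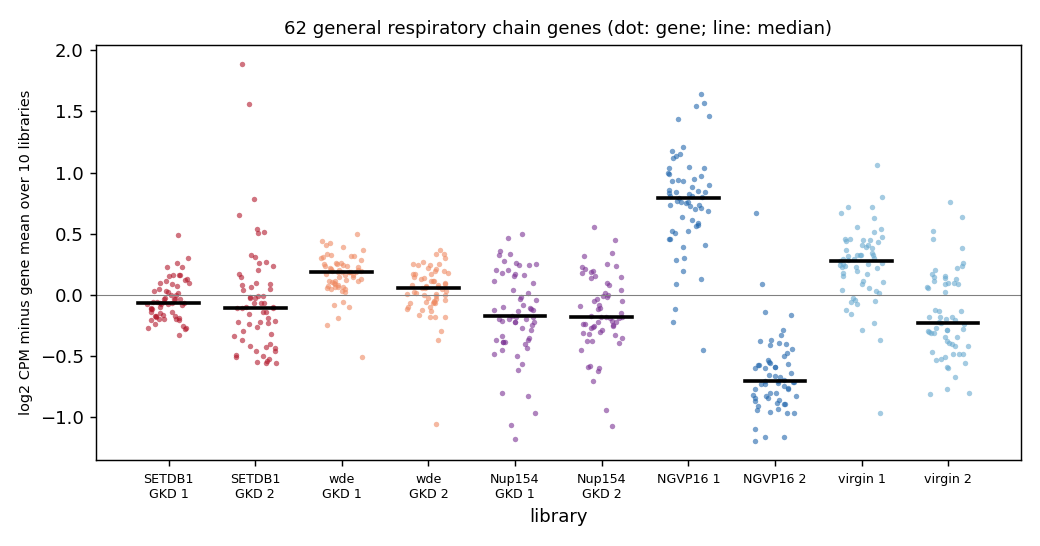
Level of each of the 62 general genes tested in each of 10 libraries, as log2 CPM minus the gene's mean over the libraries (vertical axis); dots are genes and black lines are medians. NGVP16 replicate 1 is the highest and NGVP16 replicate 2 the lowest library, and their median log2 difference is 1.43.

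Other measures moved with this difference. Cytoplasmic ribosomal protein genes held 22.7% of the counts in NGVP16 replicate 1 and 8.84% in replicate 2, against 7.18% to 15.1% in the other libraries. Over 9889 genes with an annotated length, Spearman's rho between exon length and the log2 difference between replicates was -0.566 in the NGVP16 libraries, -0.389 in the virgin libraries, and 0.151, 0.051 and 0.0216 in SETDB1, wde and Nup154 GKD; genes of 1 library are not independent replicates. The general genes are short, with a median exon length of 880 bases against 2010 for those genes. The part of transcript length in the general genes' result was not tested.

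**Figure D3:**
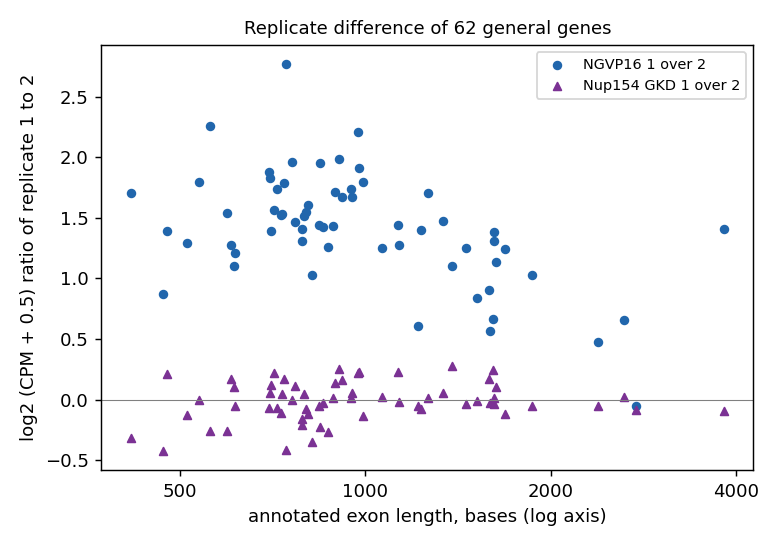
Log2 ratio of replicate 1 to replicate 2 (CPM with 0.5 added, vertical axis) for each of the 62 general genes against its annotated exon length in bases (log axis). Circles are the NGVP16 pair, with a median of 1.43, and triangles are the Nup154 GKD pair, with a median of -0.01.

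The other groups were set beside these controls gene by gene. Both libraries lay between the 2 NGVP16 libraries for 53 of 62 general genes in SETDB1 GKD and for 53 in wde GKD. The number was 48 in Nup154 GKD and 47 in the virgin pair. The NGVP16 libraries differed by a median of 2.7-fold in these genes, and the share over all genes was not taken. These numbers are thus no result about the knockdowns. The median log2 fold change of the general genes against NGVP16 was -0.26 in SETDB1 GKD, -0.10 in the wde libraries and -0.36 in the Nup154 libraries, where the median of all genes was 0.11, 0.15 and 0.12. These medians turned positive without NGVP16 replicate 1 (0.51, 0.71 and 0.42) and with scaling to ribosomal protein genes (0.44, 0.89 and 0.20). They were more negative without NGVP16 replicate 2 (-0.81, -0.62 and -0.93). The calls followed: without replicate 1, 9 general genes were higher and 0 lower in SETDB1 GKD, 20 higher and 1 lower in the wde libraries and 13 higher and 1 lower in the Nup154 libraries. Without replicate 2 the counts were 0 higher and 36 lower, 1 higher and 30 lower, and 0 higher and 38 lower. In either direction these were 14.3%, 33.3% and 22.2% of the general genes tested without replicate 1, where 23.2%, 33.7% and 34.9% of all genes were called. Without replicate 2, the 36, 31 and 38 of 62 genes called were shares above the 39.8%, 45.7% and 47.1% of all genes. No direction is therefore given for the general genes as a group.

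The same medians were taken by complex. For complex I, with 32 genes tested, they were -0.32, -0.11 and -0.33 in SETDB1, wde and Nup154 GKD, and for complex V, with 11, they were -0.34, -0.17 and -0.53. Complex III, with 6 genes, had -0.23, -0.09 and -0.23, and complex IV, with 8, had -0.18, -0.07 and -0.42. Complex II, with 4 genes, had the highest median in each knockdown, at 0.09, 0.46 and 0.45; this order was not tested.

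**Figure D4:**
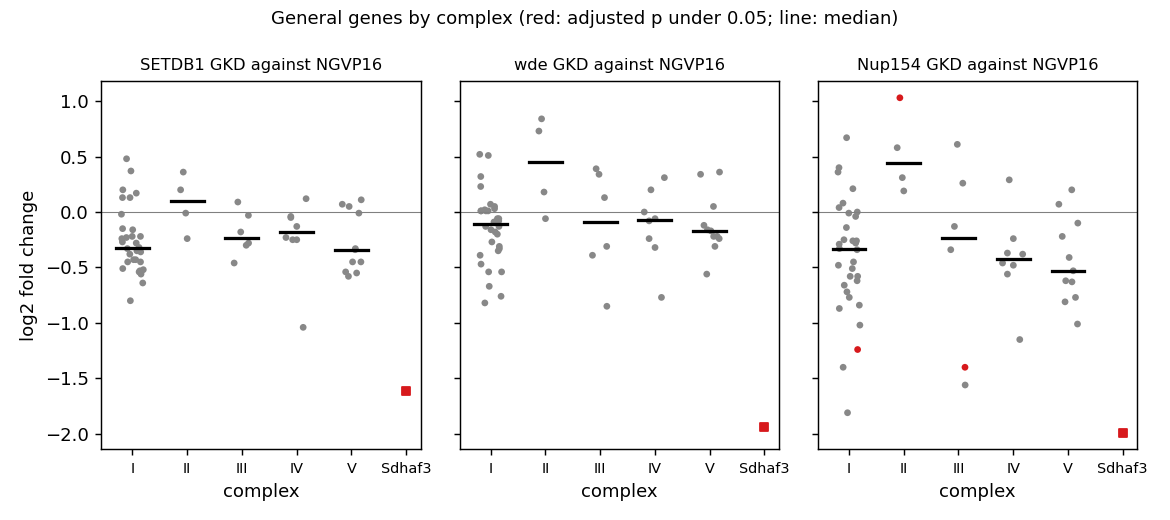
Log2 fold change of each general gene against the NGVP16 pair (vertical axis), by complex, in 3 panels for SETDB1, wde and Nup154 GKD; lines are medians of a complex and red marks an edgeR adjusted p under 0.05. Sdhaf3, shown apart, is at -1.61, -1.94 and -1.99, and SdhB is the gene called higher in Nup154 GKD.

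Sdhaf3 lies on the minus strand of chromosome 3R at 16481861 to 16482452. Its levels were 6.34 and 5.54 CPM in SETDB1 GKD, 5.61 and 3.84 in the wde libraries, 3.82 and 5.29 in the Nup154 libraries, 23.6 and 12.7 in the NGVP16 libraries, and 16.6 and 13.5 in the virgin libraries. All 6 knockdown libraries were below all 4 control libraries. The log2 fold change against NGVP16 was -1.61 ± 0.45 (edgeR adjusted p = 0.0313), -1.94 ± 0.45 (adjusted p = 0.012) and -1.99 ± 0.45 (adjusted p = 0.00962). No pair of knockdowns differed past the test. With scaling to ribosomal protein genes the values were -1.03, -1.07 and -1.58 (adjusted p = 0.288, 0.208 and 0.0841), and without NGVP16 replicate 1 the value in SETDB1 GKD was -1.17 (adjusted p = 0.0999). The adjusted p was 0.128 and 0.125 without either SETDB1 GKD library, 0.0765 without wde GKD replicate 2, and 0.0865 and 0.0501 without either Nup154 GKD library.

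SdhB, the iron-sulfur subunit of complex II, lies on the plus strand of chromosome 2R at 6807626 to 6809172, and 10.6% of its exon bases overlap CG15237 on the opposite strand. It was at 154 and 160 CPM in the Nup154 libraries, 145 and 131 in the wde libraries, 119 and 79.1 in SETDB1 GKD, 93.2 and 60.9 in the NGVP16 libraries, and 123 and 76.8 in the virgin libraries. Nup154 and wde libraries were above all controls, and SETDB1 GKD overlapped them. The rise of 1.03 ± 0.33 on the log2 scale in Nup154 GKD (edgeR adjusted p = 0.0396) was lost with the virgin pair as the control (0.65, adjusted p = 0.147), with DESeq2 size factors (0.95, adjusted p = 0.0506), without either Nup154 GKD library (adjusted p = 0.133 and 0.147) and without NGVP16 replicate 2 (0.0945). The call in Nup154 GKD held in only 3 of 14 alternatives, and was also lost with upper quartile and with ribosomal protein scaling. In wde GKD the log2 fold change was 0.84 ± 0.33 (edgeR adjusted p = 0.0766). There SdhB passed in 3 of 14 alternatives, among them edgeR with the length trend removed (0.92, adjusted p = 0.0092) and DESeq2 (0.84, adjusted p = 0.0466). SdhA, its partner in the catalytic part of the complex, was at 0.73 ± 0.25 in the wde libraries and 0.58 ± 0.25 in the Nup154 libraries, neither past the test (edgeR adjusted p = 0.0511 and 0.101). In wde GKD, SdhA was called higher with DESeq2 and with DESeq2 size factors, but not with upper quartile or ribosomal protein scaling.

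UQCR-11, a small subunit of complex III on the plus strand of chromosome 3L at 25120709 to 25126171, was at 51.5 and 43.3 CPM in the Nup154 libraries, 102 and 143 in SETDB1 GKD, 99.1 and 104 in the wde libraries, 154 and 97 in the NGVP16 libraries, and 150 and 52.3 in the virgin libraries. Nup154 GKD was below every other library, 1 virgin library by little. It fell by 1.40 ± 0.46 on the log2 scale against NGVP16 (edgeR adjusted p = 0.0424), and its adjusted p was 0.158 without NGVP16 replicate 1, 0.138 and 0.199 without either Nup154 GKD library and 0.0865 with the virgin pair as the control.

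ND-15, an accessory subunit of complex I on the plus strand of chromosome 2L at 114726 to 156030, shares 15.9% of its exon bases with Pus10 and CG3436. Its levels were 51.6 and 52.2 CPM in the Nup154 libraries, 92.5 and 73.8 in SETDB1 GKD, 94.9 and 102 in the wde libraries, 174 and 71.6 in the NGVP16 libraries, and 82.3 and 52.3 in the virgin libraries. The Nup154 libraries were below the NGVP16 libraries but level with 1 virgin library. The fall of 1.24 ± 0.41 (log2) against NGVP16 (edgeR adjusted p = 0.0408) was -0.38 (adjusted p = 0.473) with the virgin pair as the control and -0.62 (adjusted p = 0.138) without NGVP16 replicate 1. Without either Nup154 GKD library its adjusted p was 0.166 and 0.164.

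**Figure D5:**
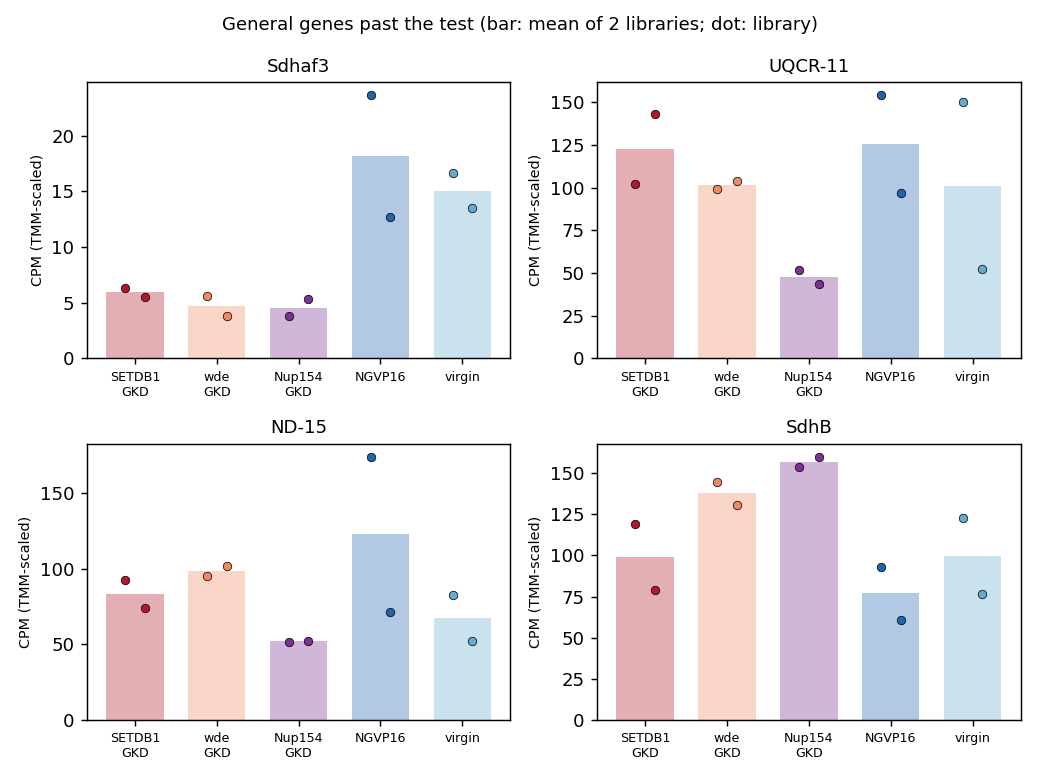
Levels of the 4 general genes past the test in a comparison with NGVP16, in CPM after TMM scaling (vertical axes, each from 0), by group; bars are means of 2 libraries and dots are libraries. For Sdhaf3 all knockdown libraries, at 3.82 to 6.34 CPM, are below the controls, at 12.7 to 23.6 CPM, while SdhB overlaps between SETDB1 GKD and the controls.

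Between knockdowns, the general genes were compared without the NGVP16 libraries in the contrast, though these stayed in the fit. In edgeR, 0 of 62 were called in SETDB1 GKD against Nup154 GKD (3 at an unadjusted p under 0.05, and 2 called by DESeq2), where 3.68% of all genes were called. The count was also 0 in the wde libraries against Nup154 GKD (2 unadjusted, 0 by DESeq2; 1.42% of all genes) and in SETDB1 GKD against wde GKD (0 unadjusted, 0 by DESeq2; 0.287% of all genes). In wde GKD against Nup154 GKD, both wde libraries were above both Nup154 libraries for 42 of 62 general genes and below for 7, where 31.6% and 34.7% of all genes tested had that order. The median log2 difference was 0.25, with -0.01 for all genes. When only these 2 groups were fitted, 16 general genes were called higher and 0 lower, or 25.8% of them. In that fit 20.7% of all genes were called in either direction. The share of all genes called higher was not taken, so the 2 shares are not like for like. SETDB1 libraries were both below the wde libraries for 36 general genes and both above for 5, against 29.3% and 26.4% of all genes, with a median of -0.20.

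The same counts were taken by complex. Both wde libraries were above both Nup154 libraries for 10 of the 11 complex V genes tested and below for 1, above for 22 of the 32 complex I genes and below for 3, and above for 1 of the 4 complex II genes and below for 1. In SETDB1 GKD against Nup154 GKD, all 4 complex II genes were lower without overlap, with a median of -0.41, while complex IV had 5 of 8 genes higher and 1 lower without overlap. Across the general genes, 28 were higher and 19 lower without overlap in that comparison, where 32.7% and 36.9% of all genes were. These counts are descriptions of 2 libraries a group, and none of the genes passed the adjusted test.

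The virgin and NGVP16 pairs, both young controls, gave 0 of 62 general genes called in edgeR (3 unadjusted, 0 by DESeq2), where 1.64% of all genes were called, 0.356% higher and 1.29% lower. The median was -0.16. Without NGVP16 replicate 1 or 2, 3 general genes were higher or 22 were lower.

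The range of levels within a complex was wide in complexes I and V and narrowest in complex II. On the scale of CPM per kilobase of exon, averaged over the 10 libraries, ATPsynC, the subunit of the membrane ring of ATP synthase, had the highest level at 1620, and ATPsyndelta, a central stalk subunit, the lowest of complex V at 63.1. The exons of ATPsyndelta are the longest of the general genes tested, at 3817 bases, and 35.6% of them overlap CG2962 on the opposite strand. Its value per kilobase depends on that length. In complex IV the range was narrower, from COX7C, a small subunit, at 169 to COX6B, which faces the intermembrane space, at 485. Complex III ran from UQCR-11 at 61.7 to the core protein UQCR-C1 at 258, and complex II from the membrane anchor SdhD at 65 to SdhB at 93.7. In complex I, ND-MLRQ was highest at 507; its mammalian counterpart is now placed in complex IV. ND-MWFE, an accessory subunit, was the lowest of complex I at 19.7 CPM per kilobase. Sdhaf3 was at 20.6, near the lowest subunit.

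ND-MWFE also had the largest log2 difference of the general genes between SETDB1 and Nup154 GKD. It was at 19 and 39.9 CPM in SETDB1 GKD, 14.3 in both wde GKD libraries, 5.95 and 7.02 in Nup154 GKD, 36.6 and 9.09 in the NGVP16 libraries, and 12.1 and 7.68 in the virgin libraries. The SETDB1 libraries were above the Nup154 libraries, by 2.18 ± 0.63 on the log2 scale, which did not pass (edgeR adjusted p = 0.0947). Of its exon bases, 35% overlap TppII or Nrk.

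The 4 general genes that did not pass the filter were ND-MNLL, ND-B8, UQCR-14 and Cyt-c-d. UQCR-14 was listed at 0 in all 10 libraries, and all of its exon bases overlap CG32576 on the opposite strand. ND-MNLL was also at 0, with all bases shared with CG45089 on its own strand, and ND-B8 reached 3 counts, with 15.4% shared with Gs1l on the opposite strand. Such zeros were common among overlapping genes: of 60 protein-coding genes whose exon bases were all shared with the opposite strand and none with their own, 55 (91.7%) had 0 counts in the 10 libraries, against 844 of 9378 (9%) with no shared base. The zeros of UQCR-14, and of COX5BL, whose exon bases all overlap Trmt6 on the opposite strand, are thus not read as absence of the transcript. With all exon bases shared on any strand, 325 of 345 genes (94.2%) were at 0, so the zeros of ND-MNLL are not so read either. ND-B8, with 15.4% of its bases shared, is not covered by these shares. Cyt-c-d, known in Drosophila for its role in late spermatid development, had 13 and 7 counts in SETDB1 GKD, 9 and 0 in the wde libraries, 6 and 1 in the Nup154 libraries, and 0 or 1 in each control library, with 36.4% of its exon bases shared with CG31808 on the opposite strand.

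Lists of genes outside the naming rule placed these results. The 6 nuclear subunit genes with other names, among them sun, levy and cype, gave 0 calls in each knockdown against NGVP16, with medians of -0.17, 0.01 and -0.35. The 13 genes encoded in mitochondrial DNA were listed at 0 in every library, so no ratio of nuclear to mitochondrial subunits was formed.

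Some factors that assemble the complexes fell in the knockdowns. A list of 26 assembly and insertion factors had 14 genes in the count files, all tested. Of these, 4 were lower and 0 higher in SETDB1 GKD against NGVP16, 8 and 0 in wde GKD, and 7 and 0 in Nup154 GKD. The shares of all genes called lower were 9.51%, 14.2% and 16.1%. Among the 14 is ttm50, a gene of protein import rather than of assembly, which was called lower in all 3 knockdowns. The medians of the 14 were -0.81, -0.91 and -1.02. Surf1, a complex IV assembly factor, fell in all 3 knockdowns (-1.61 ± 0.42, -1.74 ± 0.43 and -1.60 ± 0.42; edgeR adjusted p = 0.026, 0.0143 and 0.018). Cox11, which delivers copper to complex IV, fell in wde and Nup154 GKD (-1.52 ± 0.42 and -1.75 ± 0.43; adjusted p = 0.0233 and 0.0126). Coa7 and Scox, which also serve complex IV assembly, were at -1.48 ± 0.28 and -1.32 ± 0.34 in Nup154 GKD (adjusted p = 0.00447 and 0.0161). Without NGVP16 replicate 1 the counts of lower factors were 2, 3 and 5, without replicate 2 they were 13, 12 and 13, with either SETDB1 or either wde library left out they were 0 in that knockdown, and with 1 Nup154 library left out they were 2 and 1. With ribosomal protein scaling they were 0, with negative medians of -0.28, -0.11 and -0.62. The summed share of the 14 genes was 0.0346% to 0.0457% of the counts in the knockdown libraries and 0.0581% to 0.0974% in the controls, and the germ cell markers given above moved with it; their part in the result was not tested.

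Regulators of mitochondrial DNA and of mitochondrial genes also differed. Of 11 tested, 2 were lower in SETDB1 GKD against NGVP16, 4 lower and 1 higher in the wde libraries, and 5 lower and 1 higher in the Nup154 libraries. The share of all genes called lower was 9.51%, 14.2% and 16.1%, and 21.3% and 20.8% were called higher in wde and Nup154 GKD. The germ cell markers given above moved with these counts, and the part of those markers was not tested. TFAM, which packages mitochondrial DNA, fell by 1.29 ± 0.29, 1.60 ± 0.29 and 1.88 ± 0.30 on the log2 scale (edgeR adjusted p = 0.0144, 0.00434 and 0.00191). The mtDNA-helicase, which unwinds it for replication, fell by 1.92 ± 0.42, 1.74 ± 0.42 and 1.78 ± 0.42 (adjusted p = 0.0123, 0.0132 and 0.0108). The coactivator gene srl fell in wde and Nup154 GKD (-1.32 ± 0.44 and -1.78 ± 0.45; adjusted p = 0.0459 and 0.0147). Hnf4, a nuclear receptor, rose in the same pair of knockdowns (1.30 ± 0.31 and 1.71 ± 0.31; adjusted p = 0.0124 and 0.00355). None of these regulators was called with ribosomal protein scaling, and with 1 Nup154 GKD library left out 1 was lower and 1 higher there. The summed share of the listed regulators was 0.0736% to 0.0915% of the counts in the knockdown libraries. It was 0.0925% in NGVP16 replicate 1, 0.195% in NGVP16 replicate 2, and 0.161% and 0.18% in the virgin libraries. By this share, NGVP16 replicate 1 thus lay near the knockdowns. Between knockdowns, Hnf4 was lower in SETDB1 GKD than in Nup154 GKD by 1.51 ± 0.31 on the log2 scale (edgeR adjusted p = 0.0386).

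The tricarboxylic acid cycle feeds the chain. Of 12 of its genes tested, 4 were higher in wde GKD against NGVP16, where 21.3% of all genes were. This count is not far from the background, so it is no result about these enzymes as a group. In SETDB1 and Nup154 GKD 0 were called (DESeq2 called 1 higher in the first and 1 lower in the second). Those called in wde GKD were mAcon1, an aconitase, at 1.08 ± 0.32, Ogdh of the oxoglutarate dehydrogenase complex at 1.07 ± 0.29, the isocitrate dehydrogenase subunit Idh3g at 0.96 ± 0.29 and the succinyl-CoA synthetase subunit ScsbetaA at 0.80 ± 0.26 (edgeR adjusted p = 0.0306, 0.0227, 0.0318 and 0.0431). With either wde GKD library left out, 0 of the 12 were called. No cycle gene was called between knockdowns, and the 1 copy of a cycle enzyme tested was not called against NGVP16.

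Among 11 carriers and porins tested, 2 were higher in SETDB1 GKD and 3 each in wde and Nup154 GKD, with 0 lower; without wde GKD replicate 1, 1 was higher in wde GKD. With 14.6%, 21.3% and 20.8% of all genes called higher, these counts are near the background. Mpcp1, a phosphate carrier of the inner membrane, rose by 2.74 ± 0.33, 2.33 ± 0.33 and 2.92 ± 0.33 (edgeR adjusted p = 0.00102, 0.00137 and 0.000457). Porin2, an outer membrane channel, rose by 3.77 ± 0.76, 3.28 ± 0.76 and 4.54 ± 0.77 (adjusted p = 0.00888, 0.0114 and 0.0027). The carrier DPCoAC rose in wde and Nup154 GKD (1.16 ± 0.33 and 1.20 ± 0.33; adjusted p = 0.0244 and 0.0203). Muscle sheath genes, of which 15 of 17 were called higher in each knockdown, and hemocyte markers, of which 8 of 10 were, moved with these rises, and their part was not tested.

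In glycolysis, 0 of 12 genes tested were called in SETDB1 GKD, 2 were higher in the wde libraries and 3 in the Nup154 libraries; DESeq2 called 1, 4 and 5 higher. In edgeR, 21.3% and 20.8% of all genes were higher in wde and Nup154 GKD, so these counts too are near the background. Without wde GKD replicate 1 the count was 0 in wde GKD, and without Nup154 GKD replicates 1 and 2 it was 0 and 1 in Nup154 GKD. Ald1, an aldolase, was at 1.43 ± 0.29 and 1.34 ± 0.29 in wde and Nup154 GKD (edgeR adjusted p = 0.00657 and 0.00772). Pfk, the phosphofructokinase gene, was at 1.24 ± 0.34 in Nup154 GKD (edgeR adjusted p = 0.0201). It was also lower in SETDB1 GKD than in Nup154 GKD (-1.53 ± 0.34, adjusted p = 0.0475). Hex-C, a hexokinase, was at 3.00 ± 0.72 in wde GKD (adjusted p = 0.0133), and it also differed between the virgin and NGVP16 pairs (-4.36 ± 0.84, adjusted p = 0.0439).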

How the data were processed

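The authors deposited 1 table per library with unnormalized counts for each FlyBase gene ID. HISAT2 2.1.0 and featureCounts 1.4.6 are among the tools named in the submitters' processing notes, as are DESeq2 1.24.0 and the build dm6. The sources used here do not give what each tool did, which annotation was counted or how strand was treated. Libraries were made from poly(A) RNA with a directional kit, per the labels' protocols. Gene symbols, exon lengths and exon overlaps were taken from Ensembl's BDGP6 annotation (release 115, dm6 coordinates), where 16647 of 17023 IDs had a name.

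Genes were filtered with filterByExpr (10105 kept), scaled by TMM and tested across all of them in R 4.3.3 with edgeR 4.0.16 (robust glmQLFit, then glmQLFTest, a quasi-likelihood test). The fit held 10 libraries with 1 mean per group and 5 residual degrees of freedom; the common biological coefficient of variation was 0.387. Adjusted p-values are Benjamini-Hochberg over all genes tested, with a threshold of 0.05. The SE is the absolute log2 fold change over the square root of F. CPM are counts scaled to a common library size after TMM. The script was tested on simulated data.

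Named were every copy with at least 10 counts in a library, with its partner, the lowest and highest general gene of each complex per length, up to 4 general genes a complex past the test, Cyt-c-d and Sdhaf3, and up to 4 called genes of each other list. SdhA was added after its values were seen. Members and lists were chosen with earlier results of these data known. Alternatives were other scalings, a correction for length, no filter, DESeq2 1.42.0, other sets of libraries, a replicate block and each library left out. The adult pair (471770 and 682565 counts) was left out of the comparisons.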

Additional observations from a re-analysis of the deposited data

Results flagged for a closer look

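Both libraries of the adult pair, which no comparison used, held counts of members that were near 0 in the young controls. COX5BL, a copy of a complex IV subunit, had 31 and 34 counts in the adult libraries and 0 in all 10 others. ND-B8, an accessory subunit of complex I, had 42 and 46 against at most 3, Cyt-c-d 19 and 31 against at most 13, and COX7CL 50 and 90 against at most 14. In the same adult libraries, 28 and 29 of the 66 general genes were at 0, and the general genes held 0.473% and 0.51% of the counts. Of the 60 protein-coding genes whose exon bases were all shared with the opposite strand and none with their own, 22 (36.7%) were at 0 in the adult pair, against 55 (91.7%) in the 10 other libraries; of genes with no shared base, 60.9% and 9% were. The part of counting in these values was not tested.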

How the results depend on the processing

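Each count of called members was recomputed under the alternatives that apply to it; the virgin pair as control applies to comparisons of a knockdown with NGVP16. Of the general genes in SETDB1 GKD against NGVP16 (1 called), 0 were called with ribosomal protein scaling, with only the 2 groups fitted and with the replicate block. In wde GKD (1), the count was 2 with DESeq2 size factors, 0 with ribosomal protein scaling, 2 with the length trend removed, 3 with DESeq2 and 0 with 2 groups fitted. In Nup154 GKD (4), it was 0 with ribosomal protein scaling, 8 with the length trend removed, 9 with DESeq2, 2 with 2 groups fitted and 1 with the virgin pair as control. In SETDB1 against Nup154 GKD (0), it was 1 with the length trend removed, 2 with DESeq2 and 11 with 2 groups fitted; in wde against Nup154 GKD (0), 16 with 2 groups fitted; in virgin against NGVP16 (0), 3 with the length trend removed. Of the copies, in SETDB1 GKD (2) and in wde GKD (2) 1 was called with 2 groups fitted and 3 with the virgin pair as control, with COX7AL2 added, and in Nup154 GKD (1) the count was 2 with no filter, 2 with DESeq2 and 0 with 2 groups fitted. In SETDB1 against Nup154 GKD (2) it was 0 with ribosomal protein scaling, 1 with the adult pair included and 0 with the replicate block; in wde against Nup154 GKD (1), 0 with ribosomal protein scaling, with the length trend removed and with the replicate block. Leaving out 1 library gave 0 to 36, 0 to 31 and 0 to 38 general genes against NGVP16, and 0 to 22 for virgin against NGVP16. For copies it gave 1 to 2, 1 to 2 and 0 to 1 against NGVP16, 0 to 1 in SETDB1 against Nup154 GKD and 0 in wde against Nup154 GKD. Without NGVP16 replicate 1 the general genes went from 0 higher and 1 lower to 9 and 0 in SETDB1 GKD, and from 1 and 3 to 13 and 1 in Nup154 GKD. In these fits the lone sample of a group is assumed to vary like the others. The cause of these changes was not tested. The replicate numbers share no stated source, and the correlation of replicate differences between groups ran from -0.179 to 0.396, so the block is a hint only. ATPsynepsilonL was called against NGVP16 in 14 of 14 alternatives in SETDB1 and wde GKD and in 12 of 14 in Nup154 GKD (log2 fold change 2.58 to 7.97, adjusted p 0.000391 to 0.105). With no filter, 21 copies were tested, and the only copies called against NGVP16 were ATPsynepsilonL, Cyt-c1L and ATPsynbetaL.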
